A study of Mus musculus with 2 samples.

Results

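The 10 genes examined here are immediate early genes, namely Fos, Fosb, Jun, Junb, Jund, Egr1, Ier2, Atf3, Nr4a1, and Nr4a3. They were chosen by symbol from the 32285 genes listed for 2 single-cell RNA sequencing libraries of mouse back skin at postnatal day 1, and UMIs of all 10 were found in both libraries. Their levels were followed over 9 classes of hair follicle (HF) and epidermal cells. The animals of the library labelled PADI4 WT carried K14-Cre and tdTomato, and those of the library labelled PADI4 cKO carried K14-Cre, Padi4 fl/fl, and tdTomato. K14-Cre acts in keratinocytes of the skin, so that both libraries were sorted as tdTomato-positive epithelial cells after digestion with dispase, collagenase, and trypsin. The number and sex of the animals behind each library were not stated in the sources used here, and the labels place both libraries in batch 1.

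Immediate early genes are transcribed within minutes of a stimulus from factors already present in the cell, without new protein synthesis. Their promoters are classically read by serum response factor and its ternary complex partners and by CREB. The products of Fos, Fosb, Jun, Junb, and Jund pair to form AP-1, a dimeric transcription factor, and their transcripts are short-lived. In skin, AP-1 is known for its part in keratinocyte proliferation and differentiation. The same genes are known to be induced when tissue is dissociated with enzymes, which all cells here had been.

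Reference promoters of 8 of the 10 genes were at hand from RefSeq (GRCm38.p6), all but those of Egr1 and Ier2. The promoters of Fos, Fosb, Jun, and Nr4a3 are shown for the most strongly differing AP-1 partners, the gene with the most UMIs, and the member with the most class-restricted level. Each runs 5′ to 3′ on the strand of its gene from 250 bases before the RefSeq start. Bases that the GENCODE annotation places in an exon are left out, which ends Fosb 7 bases and Nr4a3 153 bases before the start. The regions are chr12:85473640-85473889 (plus strand), chr7:19310052-19310295 (minus strand), chr4:95052223-95052472 (minus strand), and chr4:48045055-48045152 (plus strand). Capitals mark TGACG, the core of the CREB/ATF site, on either strand, and in Jun the related TGACATCA.
Fos: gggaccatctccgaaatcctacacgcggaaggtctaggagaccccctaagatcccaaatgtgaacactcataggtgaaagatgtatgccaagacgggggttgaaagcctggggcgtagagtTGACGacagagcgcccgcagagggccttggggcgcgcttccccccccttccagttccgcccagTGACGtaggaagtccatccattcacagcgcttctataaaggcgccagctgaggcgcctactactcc
Fosb: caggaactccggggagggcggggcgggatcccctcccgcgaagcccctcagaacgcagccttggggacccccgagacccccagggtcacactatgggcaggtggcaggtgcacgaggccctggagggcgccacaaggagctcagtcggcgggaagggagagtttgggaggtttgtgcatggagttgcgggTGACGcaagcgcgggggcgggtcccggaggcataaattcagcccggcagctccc
Jun: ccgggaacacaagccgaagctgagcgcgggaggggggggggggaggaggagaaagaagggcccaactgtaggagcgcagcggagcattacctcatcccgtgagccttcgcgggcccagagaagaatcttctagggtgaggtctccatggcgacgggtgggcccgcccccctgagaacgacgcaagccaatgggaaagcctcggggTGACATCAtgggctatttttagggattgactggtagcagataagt
Nr4a3: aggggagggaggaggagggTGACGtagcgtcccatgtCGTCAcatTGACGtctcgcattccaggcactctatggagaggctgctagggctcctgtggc
TGACG was found on either strand within 250 bases before the start in 6 of the 8 promoters (Fos, Fosb, Junb, Atf3, Nr4a1, and Nr4a3), against 17.8% of all 32851 promoters. The bases just after the start were not found near the beginning of any GENCODE transcript of Junb (0 of 2) or Jund (0 of 1). The windows of these 2 genes may therefore not end at a transcript start. Nr4a1 and Nr4a3 each held 4 copies, of which the one of Nr4a3 that begins 147 bases before the start lies in the exon bases not printed, Fos held 2, and the single copy of Fosb began 60 bases before the start. TGACATCA stood 45 bases before the start of Jun and is present in 2.93% of all promoters. The palindrome TGACGTCA, which contains TGACG, was in 0 of the 8 and in 1.55% of all. GCGNGGGCG, the letters of the EGR site, was in Fosb and Nr4a1 and in 4.70% of all promoters. The CArG box, the site of serum response factor, was in 0 of the 8 windows and in 1.47% of all. Bases more than 250 before the start were not searched, nor were Egr1 and Ier2, so these genes may still hold the site. The AP-1 letters TGACTCA were in 0 of the 8 and in 4.46% of all.

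The libraries held 143938990 UMIs (labelled PADI4 WT) and 143945294 UMIs (labelled PADI4 cKO), and 8069 and 7394 cells were kept with a median of 14670 and 16208 UMIs. Among the kept cells 14 barcodes were shared by both libraries. With 1 library per genotype no test between genotypes can be made. Levels are given as UMIs per 1000000 UMIs of a class (CPM) with exact Poisson 95% intervals, and the libraries are compared as the log2 ratio of CPM, PADI4 cKO over PADI4 WT, with exact conditional binomial 95% intervals. All intervals cover counting error only, and differences between animals or preparations cannot be told apart from genotype. Padi4 itself had 98 and 89 UMIs in epithelial cells (0.776 and 0.694 CPM). A 3′ count checks a deletion only where the counted end lies in the deleted part, so the libraries are named by their labels. Another difference between the libraries lay in the sex-linked genes, as 26.8% of the PADI4 WT cells had UMIs of Xist but none of the Y-linked Uty, Eif2s3y, and Kdm5d, 59.6% had the reverse, and 99.7% of the cells of the other library had Xist UMIs alone.

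Cells were gated on marker genes into classes, with the number of PADI4 WT cells first and that of the library labelled PADI4 cKO after it. Outer root sheath (ORS)-like cells numbered 1212 and 1223, lower proximal cup (LPC)-like cells 353 and 467, germinative layer (GL)-like matrix cells 751 and 859, and inner root sheath (IRS)-like cells 492 and 370. The hair shaft classes were the cortex (Cx)-like cells, 104 and 69, and the medulla (Med)-like cells, 364 and 402. Upper HF (uHF)-like cells numbered 411 and 329, interfollicular epidermis (IFE)-like cells 209 and 72, and sebaceous gland (SG)-like cells 105 and 132. The gate left 48.2% and 45.1% of the cells without a class, and 22.7% of all cells lay near one of its limits. The Med-like class rested on 3 markers (Krtap8-1, Mt4, and Foxq1), and the GL list was its next best, with a median score of 0.74. No ORS marker was among the 10 leading genes of the ORS-like cells. Of the immune list, Tyrobp was found in 0 and 0 cells, Ptprc in 1 and 0, and Laptm5 in 1 and 0, while Fcer1g was found in 36 and 24, Cd74 in 63 and 78, and Cd52 in 75 and 107. Of the endothelial list, Cdh5, Kdr, and Cldn5 were each found in 1 to 3 cells per library and Emcn in 11 and 13, while Pecam1 was found in 130 and 139 and Egfl7 in 1472 and 1559.

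Fos and Fosb had the widest differences between the libraries among the members. Over all epithelial cells, with or without a class, Fosb stood at 95.2 CPM in the PADI4 WT library, against 172 CPM in the library labelled PADI4 cKO, a log2 ratio of 0.86 (0.83 to 0.89). Fos stood at 168 and 229 CPM, a ratio of 0.45 (0.42 to 0.47). Of 76 pairs of a member and a class with at least 100 UMIs, 17 had a ratio above 0.5, where 2.64% of all pairs of a gene and a class did. Of these 17, 7 were of Fosb, 6 of Fos, 3 of Egr1, and 1 of Ier2. A ratio below −0.5 was found in 2 pairs, Atf3 and Nr4a1 in Med-like cells, against 3.25% of all pairs. The ratio was positive in 64 pairs, and its interval lay above 0 in 49 and below 0 in 8. How many of all pairs of a gene and a class did so was not counted, so these counts have no background. Where UMIs are many, small ratios also exclude 0, such as 0.08 (0.03 to 0.14) for Jund in GL-like cells. By class, the background of all genes above 0.5 and below −0.5 differed, so that each count of members is read against its own. In ORS-like cells 2 of 9 members lay above 0.5 and 0 below −0.5, against 1.79% and 3.61% of all genes. LPC-like cells had 3 of 10 above and 0 below (2.31% and 2.25%), GL-like cells 3 of 9 and 0 (1.27% and 1.98%), and IRS-like cells 1 of 8 and 0 (1.83% and 1.23%). In Cx-like cells 1 of 8 lay above and 0 below (4.97% and 3.33%), and in Med-like cells 0 of 9 above and 2 below (1.29% and 4.69%). IFE-like cells had 1 of 8 and 0 (6.64% and 7.64%), SG-like cells 4 of 7 and 0 (4.55% and 3.33%), and uHF-like cells 2 of 8 and 0 (2.72% and 3.06%). Over all epithelial cells the count was 1 of 10 and 0, against 1.63% and 3.74%. The median ratio of the members was highest in SG-like (0.62) and uHF-like cells (0.45) and lowest in Med-like cells (−0.20), where the medians over all genes were 0.03, 0.02, and −0.02. Fos, Fosb, Egr1, and Jun were named in the paper from these same libraries, so their direction is not independent evidence.

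**Figure D1:**
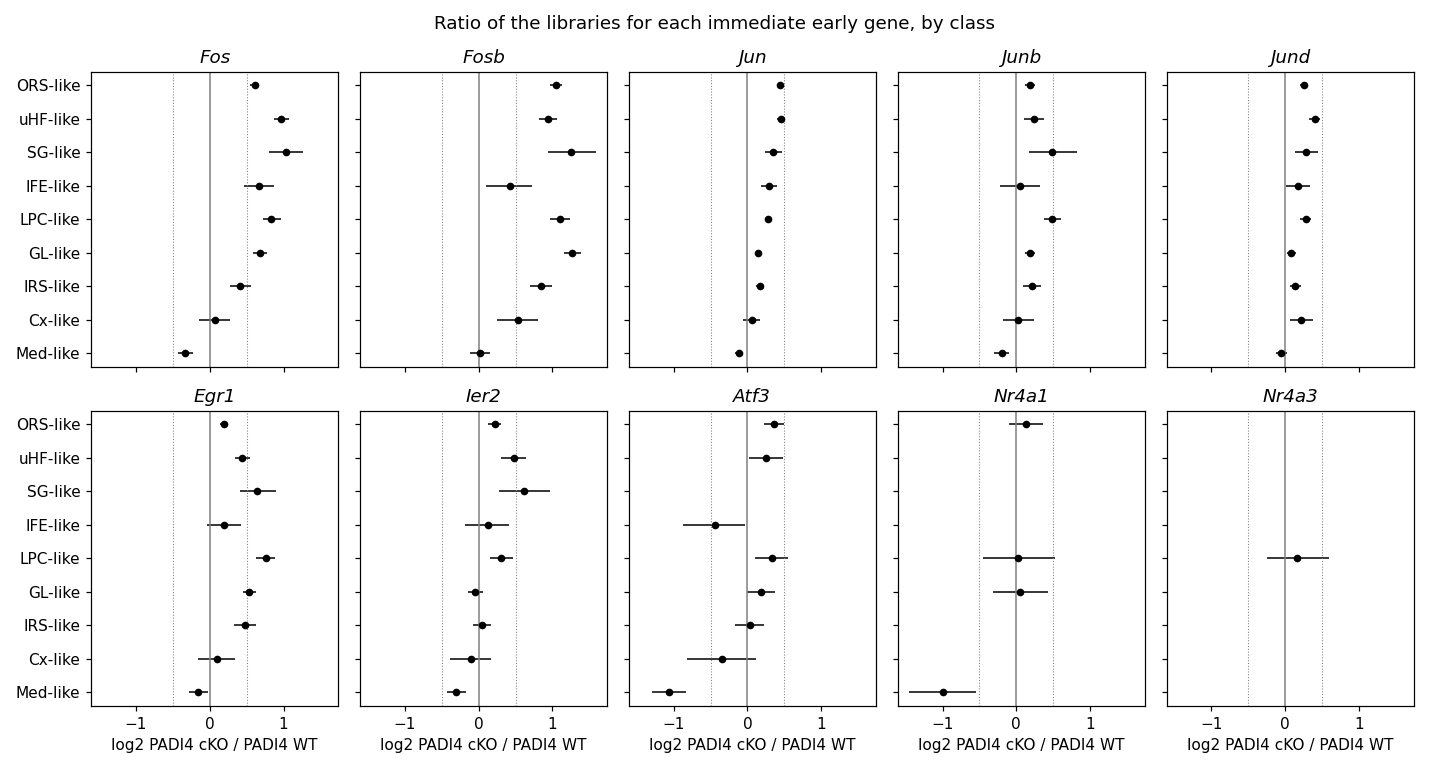
The log2 ratio of CPM, PADI4 cKO over PADI4 WT, is plotted for each gene (panels) and class (rows), for pairs with at least 100 UMIs. Points are ratios, bars are 95% counting intervals, and dotted lines mark −0.5 and 0.5; Fosb and Fos lie farthest to the right in most classes, and the Med-like row lies at or left of 0.

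Fosb was higher in the library labelled PADI4 cKO in 8 of 9 classes by its interval. In GL-like cells it stood at 51.4 CPM in the PADI4 WT library, with 124 CPM in the other, a log2 ratio of 1.27 (1.15 to 1.39). SG-like cells gave 64.3 and 154 CPM, a ratio of 1.25 (0.93 to 1.59). LPC-like cells, named after a progenitor cluster of the paper, gave 82.2 and 177 CPM (1.10, 0.97 to 1.24), and ORS-like cells 123 and 255 CPM (1.05, 0.97 to 1.13). The uHF-like cells had 157 and 302 CPM (0.94), IRS-like cells 72.3 and 130 CPM (0.85), Cx-like cells 112 and 162 CPM (0.53), and IFE-like cells 107 and 142 CPM (0.42). In Med-like cells Fosb stood at 123 and 124 CPM, a ratio of 0.01 (−0.12 to 0.15), or 0.42 with clusters in place of the gate and −0.21 in cells with Xist UMIs alone. The order of the classes also depended on the sex-linked genes. Among cells with Xist UMIs alone, Fosb gave 0.70 (0.54 to 0.87) in GL-like, 0.68 (0.46 to 0.91) in LPC-like, 0.85 (0.72 to 0.97) in ORS-like, and 0.56 (0.02 to 1.19) in SG-like cells. In the same cells it gave 0.32 (0.10 to 0.56) in IRS-like and 0.03 (−0.45 to 0.56) in IFE-like cells, and was highest in uHF-like cells at 1.31 (1.04 to 1.60).

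Fos, which binds DNA as the partner of a Jun protein, was above 0.5 in 6 of 9 classes. Its largest ratios were in SG-like cells, with 127 and 261 CPM (1.03, 0.80 to 1.27), and in uHF-like cells, with 216 and 423 CPM (0.97, 0.87 to 1.08). LPC-like cells had 105 and 188 CPM (0.84, 0.72 to 0.96), GL-like cells 94.2 and 151 CPM (0.68), IFE-like cells 222 and 353 CPM (0.67), and ORS-like cells 249 and 379 CPM (0.61). The IRS-like cells stood at 96.6 and 129 CPM (0.42). Cx-like cells, at 233 and 244 CPM, had an interval that held 0. In Med-like cells the order was turned, with 226 CPM in the PADI4 WT library, against 180 CPM in the library labelled PADI4 cKO (−0.33, −0.44 to −0.23). This Med-like value depended on which cells were taken, as clusters in place of the gate gave 0.01 and cells with Xist UMIs alone gave −0.14.

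The Jun family differed less. Jun, which can pair with itself or with a Fos protein, had a positive ratio in 8 of 9 classes, from 0.06 in Cx-like to 0.46 (0.40 to 0.51) in uHF-like cells, where it stood at 988 and 1355 CPM. In ORS-like cells it stood at 898 and 1222 CPM (0.44, 0.41 to 0.48). Junb, a member often found to restrain Jun, ranged from −0.20 in Med-like to 0.49 in SG-like and LPC-like cells, and in the latter stood at 133 and 186 CPM. Jund, the most constitutively expressed of the family, ranged from −0.05 in Med-like to 0.40 in uHF-like cells, where it stood at 490 and 647 CPM. None of the 3 passed 0.5 in any class. Over all epithelial cells the ratios were 0.25 for Jun, 0.20 for Junb, and 0.17 for Jund.

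Egr1, a zinc finger transcription factor, was above 0.5 in 3 of 9 classes. LPC-like cells had 94.98 CPM in the PADI4 WT library, with 161 CPM in the other (0.76, 0.63 to 0.89), SG-like cells 127 and 198 CPM (0.65), and GL-like cells 105 and 152 CPM (0.53). The ORS-like cells, with the highest Egr1 in the PADI4 WT library, differed little, at 336 and 383 CPM (0.19, 0.13 to 0.24). In uHF-like cells Egr1 stood at 283 and 385 CPM (0.44), and its ratio was 0.98 (0.76 to 1.21) among Xist cells. Ier2, a small nuclear protein of the early response, was above 0.5 only in SG-like cells among the classes, with 64.9 and 99.7 CPM (0.62, 0.28 to 0.97). Its ratio was −0.04 in GL-like cells and −0.30 in Med-like cells.

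Atf3, a stress-induced factor of the CREB/ATF family, did not follow the others. Over all epithelial cells it stood at 58.1 CPM in the PADI4 WT library, against 49.1 CPM in the library labelled PADI4 cKO (−0.24, −0.29 to −0.19). Within classes its interval lay above 0 in ORS-like cells (51.1 and 65.4 CPM, 0.35), LPC-like cells (34.9 and 43.8 CPM, 0.33), and uHF-like cells (60.6 and 72.0 CPM, 0.25). It lay below 0 in Med-like cells (66.1 and 31.7 CPM, −1.06, or −0.49 with clusters in place of the gate and −0.33 in Xist cells) and IFE-like cells (93.2 and 68.4 CPM, −0.44). Among Xist cells the ratio was 0.07 (−0.29 to 0.48) in LPC-like cells, 0.88 (0.63 to 1.14) in ORS-like, 0.71 (0.26 to 1.23) in uHF-like, 0.55 (0.23 to 0.89) in GL-like, and 0.56 (0.20 to 0.95) in IRS-like cells. In Cx-like cells it went from −0.34 to −1.34 (−1.87 to −0.80), and in IFE-like cells too few Atf3 UMIs were left to compare. Cells that the gate left without a class had 65.8 and 51.6 CPM (−0.35, −0.42 to −0.28). Atf3 was concentrated in few cells, as the hundredth of PADI4 WT epithelial cells with the most Atf3 held 35.2% of its UMIs, against 6.25% for Jun. In the library labelled PADI4 cKO these shares were 21.4% for Atf3, 27.3% for Nr4a1, 65.1% for Nr4a3, 9.71% for Fos, and 5.32% for Jun.

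The orphan nuclear receptors Nr4a1 and Nr4a3 were sparse. Nr4a1 reached 100 UMIs in 4 classes and was highest in ORS-like cells, at 19.9 and 21.8 CPM (0.13, −0.10 to 0.36). In Med-like cells it stood at 17.1 and 8.53 CPM (−0.995, −1.46 to −0.55), or −0.64 with clusters in place of the gate. Nr4a3, whose promoter held 4 copies of TGACG, had its highest level in LPC-like cells in both libraries, at 10.9 CPM (8.60 to 13.5) and 12.2 CPM (10.2 to 14.5), a ratio of 0.17 (−0.25 to 0.59). The next class in the PADI4 WT library was IRS-like, at 3.57 CPM, and in the other library Med-like, at 4.39 CPM. Neither interval reached that of the LPC-like cells. The 79 and 127 LPC-like UMIs came from 33 and 52 cells, an uneven spread over cells that counting intervals leave out. No Nr4a3 UMI was found in IFE-like cells, where the exact Poisson intervals reached up to 1.40 and 4.14 CPM. Melanocyte-like cells, which were too few to compare, had 15.6 and 15.0 CPM from 15 and 14 UMIs.

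**Figure D2:**
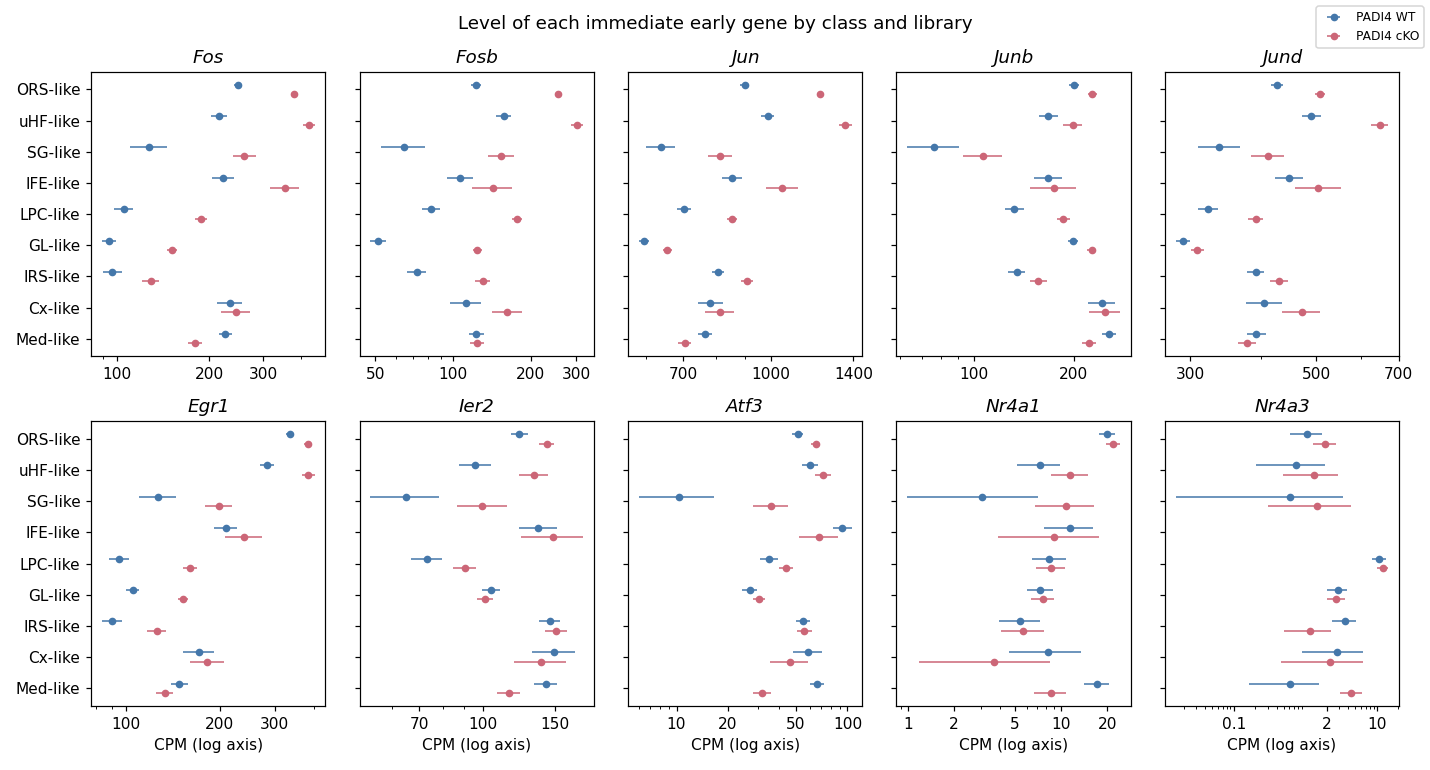
CPM of each gene (panels, log axes) is plotted for the 9 classes (rows) in both libraries, with exact Poisson 95% intervals as bars, and classes with 0 UMIs left out. ORS-like and uHF-like cells are the highest 2 classes for Egr1 and Jun in both libraries and for Fos and Jund in the library labelled PADI4 cKO, and Nr4a3 is highest in LPC-like cells.

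Between classes, the members fell into different orders. Egr1 was highest in ORS-like cells in the PADI4 WT library (336 CPM) and lowest in IRS-like cells (90.1 CPM), a log2 range of 1.90. Only the lowest pair in that order, LPC-like and IRS-like cells, lay within counting error of each other. In the library labelled PADI4 cKO, uHF-like (385 CPM) and ORS-like cells (383 CPM) shared the highest Egr1 level within counting error. Fos in the PADI4 WT library formed an upper set of ORS-, Cx-, Med-, IFE-, and uHF-like cells between 216 and 249 CPM, whose neighbors did not differ beyond counting error. The intervals of the ends of this set did not overlap, at 241 to 257 CPM in ORS-like and 203 to 228 CPM in uHF-like cells. The lower Fos set of LPC-, IRS-, and GL-like cells lay between 94.2 and 105 CPM, with SG-like cells at 127 CPM in between. In the library labelled PADI4 cKO the order ran from uHF-like cells at 423 CPM to IRS-like cells at 129 CPM, and Med-like cells, at 180 CPM, lay near LPC-like cells.

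Jun and Jund were highest in uHF-like cells and lowest in GL-like cells in both libraries. Junb took another order, highest in Med-like (256 CPM) and Cx-like cells (243 CPM) of the PADI4 WT library and lowest in SG-like cells (75.8 CPM). Ier2 was highest in Cx-, IRS-, and Med-like cells of that library, between 143 and 149 CPM, and lowest in SG-like cells at 64.9 CPM. Of the 7 members with at least 100 UMIs in every class, 5 had a log2 range above 1 in PADI4 WT cells (Fos, Fosb, Junb, Egr1, and Ier2), where 32.9% of the 4717 such genes did. In the other library 6 of 7 did, all but Ier2, against 32.3% of genes. The PADI4 WT ranges of Fos, Fosb, Junb, and Egr1 were larger than those of 80.7%, 84.9%, 87.1%, and 89.3% of genes, and those of Jun and Jund larger than 48.3% and 50.6%. The log2 range over all members summed was 0.77 and 1.00, where the median over genes was 0.74 and 0.75. Jun gave 94342 of the 244967 member UMIs of the PADI4 WT epithelial cells, so that sums follow Jun more than any other member.

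The level was also followed cell by cell. The median epithelial cell had 15.6 member UMIs per 10000 in the PADI4 WT library, against 20.7 in the library labelled PADI4 cKO, while the 99th percentiles were 107 and 111. The 99th percentile was lower in the library labelled PADI4 cKO among ORS-like cells (146 and 126) and higher among uHF-like cells (109 and 158). In ORS-like cells the medians were 19.5 and 28.3, in uHF-like cells 20.1 and 31.7, in LPC-like cells 14.9 and 20.1, and in SG-like cells 11.0 and 19.5. Med-like cells had medians of 18.3 and 17.3. The tenth of epithelial cells with the highest level held 31.5% and 28.2% of all member UMIs. At 2000 UMIs per cell, Fos was detected in 20.4% of the PADI4 WT epithelial cells (19.5 to 21.3) and in 31.4% of the others (30.3 to 32.5). Without thinning these shares were 54.9% and 70.6%. Free RNA could account for 2.09% to 8.44% of the UMIs of a member, as estimated from near-empty droplets. No class here lacks these genes to serve as a background, apart from IFE-like cells for Nr4a3. Across thinned cells within a class, the highest median Spearman correlations were 0.22 between Fos and Fosb in the PADI4 WT library and 0.27 between Fos and Jun in the other. At 2000 UMIs most cells had no Fos UMI, which holds such correlations low, so they do not measure how closely the members go together. Fos and Fosb were found together in 99 thinned ORS-like PADI4 WT cells, where independence would give 53.3. In LPC-like cells of that library they were found together in 6, against 7.07. These correlations and counts share cells and depth and are given as a description.

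**Figure D3:**
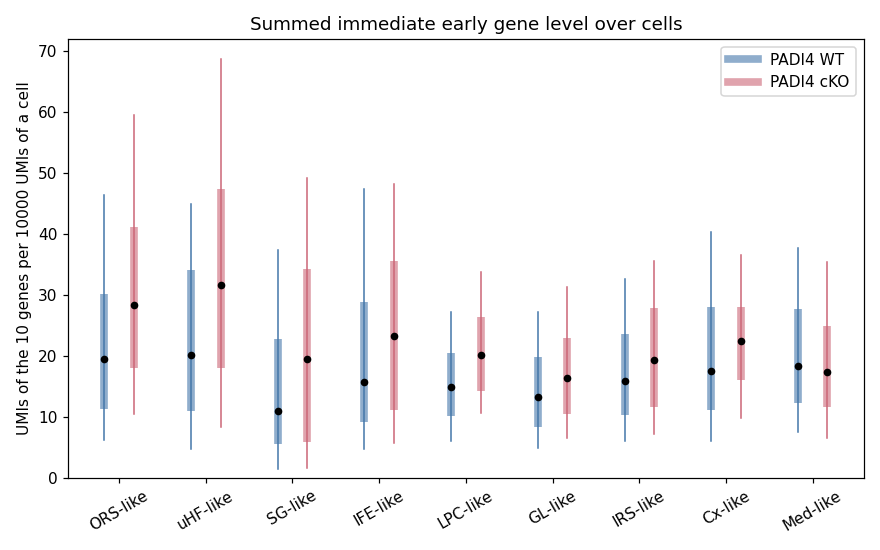
UMIs of the 10 genes per 10000 UMIs of a cell are plotted by class and library. Points are medians, thick bars the middle 50% of cells, and thin bars the 10th to 90th percentile; the median is higher in the library labelled PADI4 cKO in each class but the Med-like.

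The sex-linked split of the PADI4 WT library allowed the members to be set against it. In epithelial cells with Xist UMIs alone, Fos stood at 162 CPM in the PADI4 WT library, with 229 CPM in the other (0.50, 0.46 to 0.54), and Egr1 at 187 and 233 CPM (0.31, 0.27 to 0.35). Fosb stood at 114 CPM in the PADI4 WT cells with Xist UMIs and at 87.3 CPM in those with Y-linked UMIs, a ratio of 0.39 (0.33 to 0.44) within 1 library. Against the Xist cells of the PADI4 WT library, Fosb of the library labelled PADI4 cKO gave 0.60 (0.55 to 0.65), and against the Y-linked cells 0.98 (0.94 to 1.02). Atf3 stood at 38.2 CPM in the Xist cells and 68.1 CPM in the Y-linked cells of the PADI4 WT library (−0.83, −0.93 to −0.74). Its ratio between the libraries was 0.36 among Xist cells. Over all epithelial cells, its lower level in the library labelled PADI4 cKO was thus seen against the Y-linked cells alone. By class, the Atf3 ratio among Xist cells was still negative in Cx-like and Med-like cells, as given above.

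In Med-like cells, the 98 Xist cells of the PADI4 WT library had 1889 CPM of summed members and the 402 of the other library 1902 CPM, a ratio of 0.01 (−0.04 to 0.07). The 216 Y-linked Med-like cells had 2174 CPM. In Cx-like cells, of which 30 in the PADI4 WT library had Xist UMIs alone, the summed members turned from 0.09 to −0.19 (−0.28 to −0.10). There Fosb stood at −0.42 (−0.76 to −0.08), Fos at −0.34 (−0.62 to −0.06), and Ier2 at −0.42 (−0.78 to −0.05). Whether the cells with Xist and with Y-linked UMIs came from separate animals is not given by the labels. In the PADI4 WT library 6.70% of the cells had both kinds of UMIs and 6.87% had neither, so the sets were largely separate. Ratios between these sets may be differences between animals, and the libraries were not balanced for them.

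**Figure D4:**
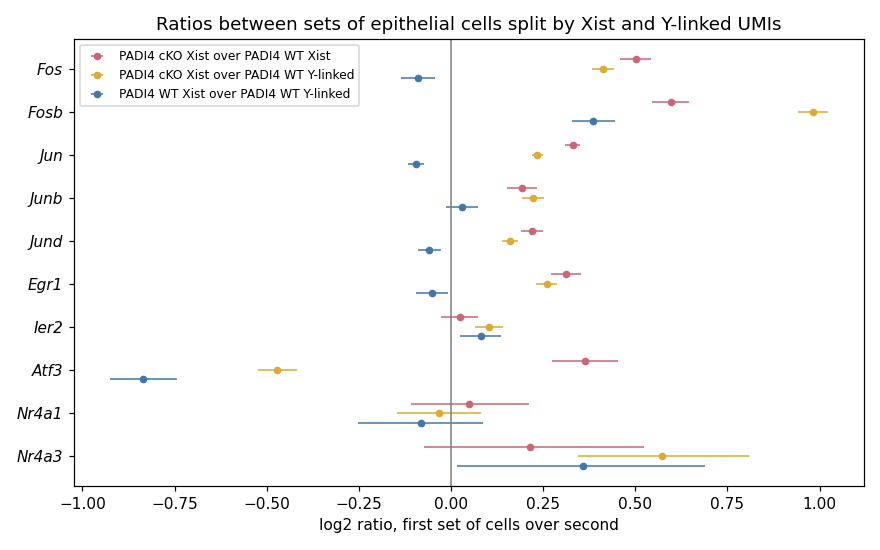
The log2 ratio of CPM over all epithelial cells is plotted for each gene (rows) between 3 pairs of cell sets split by Xist and Y-linked UMIs, with 95% counting intervals as bars. Fos, Fosb, Jun, and Egr1 lie right of 0 in both comparisons between libraries, and Atf3 changes side.

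The sort also held cells whose leading genes were not epithelial. In fibroblast-like cells, 87 and 71 in number, Krt14 stood at 1516 and 903 CPM, so that they held keratinocyte transcripts as well. There 5 of 8 members lay above 0.5 and 0 below −0.5, against 5.15% and 5.22% of all genes. Fosb stood at 225 and 391 CPM (0.80, 0.57 to 1.03) and Junb at 138 and 270 CPM (0.97, 0.69 to 1.26). In melanocyte-like cells, of which the 49 in the library labelled PADI4 cKO fell short of the minimum of 50, 4 of 7 members lay above 0.5 and 0 below, against 6.99% and 8.02%. Fosb stood there at 72.6 and 176 CPM, and Fos at 156 and 283 CPM.

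Of a list of 42 other immediate early genes, 6 of the 37 compared in ORS-like cells were above 0.5, among them Klf4, Nfkbiz, and Ppp1r15a, and 2 below −0.5 (Klf2 and Socs3), against 1.79% and 3.61% of all genes. In LPC-like cells 5 of 33 lay above and 0 below (2.31% and 2.25%), in GL-like cells 2 of 34 and 0 (1.27% and 1.98%), and in IRS-like cells 0 of 28 and 0 (1.83% and 1.23%). Med-like cells had 0 of 29 above and 4 below (Ier3, Zfp36, Sgk1, and Cebpb), against 1.29% and 4.69%. In the other classes both directions were found, with 3 of 22 above and 1 below in Cx-like cells (4.97% and 3.33%), 3 of 22 and 2 in IFE-like cells (6.64% and 7.64%), 1 of 23 and 1 in SG-like cells (4.55% and 3.33%), and 3 of 30 and 3 in uHF-like cells (2.72% and 3.06%). Over all epithelial cells 0 of 41 lay above and 2 below (Klf2 and Socs3), against 1.63% and 3.74%. The median ratio of the list was 0.14 in ORS-like cells and −0.22 in Med-like cells, beside −0.01 and −0.02 over all genes. Klf4, a keratinocyte differentiation factor named after its values were seen, lay above 0.5 in 5 of 9 classes, and stood at 111 and 163 CPM in ORS-like and 81.5 and 142 CPM in uHF-like cells. Among 24 upstream and feedback genes, such as the phosphatase Dusp1 and the Sprouty inhibitors, 10 to 22 were compared per class. At most 1 was above 0.5 in any of the 9 classes, against 1.27% to 6.64% of all genes. With so few genes, such counts cannot be told apart from that share. Below −0.5 were 3 of 18 in Med-like cells (Dusp1, Dusp6, and Spry2), where 4.69% of all genes were, and 2 of 13 in IFE-like cells (Mrtfb and Nab1), where 7.64% were. Dusp1 was above 0.5 in LPC-like and uHF-like cells.

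Hspa1a and Hspa1b, which encode inducible HSP70, were the genes of these lists and of 14 heat shock genes that passed 0.5 in size in at least 4 classes with 1 sign throughout. Hspa1a stood at 67.0 CPM in PADI4 WT epithelial cells and 43.9 CPM in the library labelled PADI4 cKO (−0.61, −0.66 to −0.56), and was below −0.5 in 6 of 9 classes. Hspa1b stood at 149 and 114 CPM (−0.39) and was below −0.5 in 4 of 9. Both ratios were negative in all 9 classes. Within the PADI4 WT library, Hspa1a stood at 48.2 CPM in Xist cells and 74.2 CPM in Y-linked cells. Among Xist cells alone the ratio between the libraries was −0.14 for Hspa1a and −0.18 for Hspa1b. The median ratio of the heat shock list was lowest in Cx-like cells (−0.22, beside 0.00 over all genes) and Med-like cells (−0.11, beside −0.02), and highest in IFE-like cells (0.14, beside 0.01). In the other 6 classes it lay between −0.04 and −0.01.

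The genes whose levels were most like the mean of the members, over 18 points of 9 classes and 2 libraries and among 4717 genes, were Atrnl1 (Pearson r = 0.86), Ralgapb (0.82), Dis3l2 (0.82), and Ctnnd2 (0.81). The points share libraries and depth, so these values are a description. The mean also took in Atf3, Nr4a1, and Nr4a3, which lacked 100 UMIs in some classes and were not ranked themselves. Over these points the log2 range of Nr4a3, which had no UMI in IFE-like cells, was 6.01. For the members with at least 100 UMIs in every class it ran from 1.15 (Jund) to 2.55 (Fosb). The mean, and so the ranking, therefore leans on the sparsest member.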

How the data were processed

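Per the file headers, the deposited matrices are Cell Ranger 7.1.0 output, whose values are unnormalized UMI counts for each gene in each unfiltered droplet, and the submitters' processing notes name mm10. Whether intronic reads were counted is not given in the sources used here. Droplets were kept under the limits of the study (2000 to 60000 UMIs, 1000 to 8000 genes, at most 20% mitochondrial and 1% hemoglobin UMIs, ribosomal share from the 5th to the 99th percentile). CellBender and Harmony, which the authors used, were not run. Doublets were kept, since the automatic threshold of Scrublet called 1 PADI4 WT cell (0.0124%) and 296 cells of the other library (4.00%), and the 6% with the highest scores were left out as an alternative.

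Each cell was scored per marker list as the mean z score of log-scaled expression over markers detected in at least 50 cells. It was put in the class of its best list where the score was at least 0.5, the margin over the next list at least 0.25, and at least 2 markers had a UMI. These limits, the minimum of 50 cells per class and library, and the definition of a moved value were set after the data had been seen. Names ending in -like come from this gate, so that a class need not hold the same cells as the population of that name in the study. Companion layer-like cells (29 and 17) were too few to compare. Fibroblast-like cells (87 and 71) and melanocyte-like cells (65 and 49) were left out of the epithelial sums.

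UMIs were summed per class and library, 0.5 UMI was added for ratios, and genes with at least 100 UMIs in a class over both libraries were compared over the whole table. Past 0.5 in size on the log2 scale counts as past the fold. No p-value was computed. Named genes are the 10 members and, from lists of other immediate early, upstream and feedback, and heat shock genes, those past 0.5 in at least 4 classes with the same sign in each. Other genes named from these lists were chosen after their values were seen. The members and lists were chosen with earlier results of these data known. Gene positions and exons came from GENCODE M21 (GRCm38), which holds 32158 of the 32285 gene identifiers of the files. The ratio and its interval were checked on simulated Poisson counts, the model that the interval assumes. That check covers the calculation alone, and leaves out UMIs spread unevenly over cells. Python 3.11.15, SciPy 1.17.1, and Scanpy 1.11.5 were used. In all, 17 alternatives were tried, 1 of them added after the results had been seen.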

Additional observations from a re-analysis of the deposited data

Results flagged for a closer look

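With the gate and all cells, Med-like cells had counting intervals below 0 for members whose intervals in other classes lay above. The differences between classes were not tested. How many of all genes did so was not counted, and 4.69% of all genes lay below −0.5 in Med-like cells, against 1.29% above 0.5. For Fos the Med-like ratio was −0.33, with intervals above 0 in 7 other classes. Jun gave −0.12 against 7 classes, Junb −0.20 against 6, Egr1 −0.16 against 6, and Ier2 −0.30 against 4. Atf3 was at −1.06 in Med-like and −0.44 in IFE-like cells, with intervals above 0 in 3 classes. With clusters in place of the gate, the Med-like ratio was 0.01 for Fos and 0.25 for Egr1, and among Xist cells of both libraries it was −0.14 for Fos, 0.07 for Jun, and 0.29 for Egr1. Among those Xist cells the summed members gave 0.01 in Med-like and −0.19 in Cx-like cells, so Med-like cells were not the lowest class there.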

How the results depend on the processing

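No paired analysis was possible because each genotype has 1 library, and for the same reason no replicate could be left out. Over the 17 alternatives, the epithelial ratio kept its sign for Fos (0.41 to 0.59), Fosb (0.60 to 0.98), Jun (0.23 to 0.33), Junb, Jund, Egr1, Ier2, and, in the 16 that gave a value, Nr4a3. That of Atf3 (−0.47 to 0.36) and that of Nr4a1 (−0.12 to 0.05) changed sign in 1 setting each, the Xist cells. The summed epithelial ratio of 0.26 became 0.25 with at least 4000 UMIs per cell, 0.33 in cells thinned to 2000 UMIs, 0.27 without doublets, 0.28 centered on the median of all genes, and 0.31 in Xist cells. The 17 of 76 pairs above 0.5 became 26 of 73 in Xist cells. The share of all genes above 0.5 was not computed there, with fewer PADI4 WT cells, so the 2 counts cannot be compared. The 2 pairs below −0.5 became 0 in thinned cells, where neither reached 100 UMIs. The count was 1 with Leiden clusters (Nr4a1 in Med-like cells), with at least 500 UMIs per gene (Atf3 in Med-like cells), and in Xist cells, where it was another pair, Atf3 in Cx-like cells. The range between classes in the PADI4 WT library, 0.77, became 0.91 under a stricter gate, 1.38 with Leiden clusters, and 0.88 in Xist cells and in Y-linked PADI4 WT cells. In the library labelled PADI4 cKO, 1.00 became 1.11 in thinned cells, 0.95 under a looser and 0.96 under a stricter gate, 1.48 with Leiden clusters, 1.06 without doublets, 1.04 with free RNA subtracted, and 0.97 without cells near the limits of the gate, an alternative chosen after seeing the data. Fosb in Cx-like cells turned from 0.53 to −0.42 in Xist cells. Clusters gave no Cx-like and too few IFE-like cells. The causes were not tested. The summed Med-like ratio lay above 0 in 2 of 17 settings, and the summed Cx-like ratio in 14 of 16, the others being thinned cells (−0.01) and Xist cells (−0.19). Depth limits Nr4a3 most, with 100 UMIs reached in 1 class.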

Other observations

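In companion layer-like cells, 29 and 17 in number, Atf3 had 223 UMIs in the PADI4 WT library (431 CPM) and 10 in the other (40.5 CPM), and Fos had 195 (377 CPM) and 12 (48.6 CPM). In SG-like cells Atf3 had 17 and 73 UMIs (10.3 and 35.7 CPM), and in Med-like cells Nr4a3 had 4 and 35 UMIs, all below the minimum of 100.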
